A study of Mus musculus with 9 samples.

Results

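The transcripts described here come from the genes of mouse chromosome 14 that were expressed in Panc02 cells, an established line from a mouse ductal adenocarcinoma of the pancreas. Members were selected on their position: genes whose first listed chromosome in the deposited count files was 14, with 10 or more counts in at least 3 libraries, leaving out genes of cytosolic ribosomal proteins. This gave 505 members, of 1802 chromosome 14 genes in the files and of 16049 genes on all chromosomes that met the same count rule. The chromosome was chosen with its higher level in one of the clones against parental cells already known, so that level is given as a description, with no test.

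Poly(A) RNA was sequenced from 9 untreated libraries in 3 groups of 3. The group called parental is the unedited line. KO_1E7 is a single clone whose genotype label is a knockout of VPAC2, a receptor of the neuropeptide VIP and the product of the Vipr2 gene. CRISPR_1G2 is a single clone whose genotype label is wild type after CRISPR, whereas the design text describes both clones as taken from knockout cells. This conflict was not settled here, and the genotype label is followed, so CRISPR_1G2 may or may not carry a working Vipr2. Each clone is 1 cell's progeny, so what separates it from parental includes whatever sets that clone apart besides the edit. Whether replicates were grown as separate cultures is not stated, so the p-values here cover the spread among 3 libraries, possibly a technical one.

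The mouse chromosome has its centromere at one end, and gene positions are counted from there. Chromosome 14 carries genes of many unrelated functions, among them the tumour suppressors Rb1 and Bap1, and also local clusters that arose by duplication, such as those of the granzymes, the mast cell proteases and the secreted ribonucleases. Most genes are switched by promoters and enhancers of their own, so a member can depart from its neighbours, and the median over many members describes what they have in common.

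Promoters of 5 members on which the results below turn are shown, as the 250 bases before the start site in RefSeq on GRCm38.p6, 5′ to 3′ on the gene's own strand, with every CG dinucleotide in capitals. CG is the site of DNA methylation in mammals and reads the same on both strands. Txndc16 rose in KO_1E7 and was lowest in CRISPR_1G2, Npy4r rose in KO_1E7, Zfp503 and Mcpt8 fell in it, and Tpt1 is the member with the most counts.
Txndc16 (chr14:45219426-45219675, minus strand): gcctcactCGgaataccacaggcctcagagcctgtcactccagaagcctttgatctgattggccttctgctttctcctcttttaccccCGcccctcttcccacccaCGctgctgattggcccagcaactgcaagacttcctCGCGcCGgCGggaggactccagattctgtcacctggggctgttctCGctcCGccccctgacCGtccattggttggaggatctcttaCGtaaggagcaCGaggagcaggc
Npy4r (chr14:34152420-34152669, minus strand): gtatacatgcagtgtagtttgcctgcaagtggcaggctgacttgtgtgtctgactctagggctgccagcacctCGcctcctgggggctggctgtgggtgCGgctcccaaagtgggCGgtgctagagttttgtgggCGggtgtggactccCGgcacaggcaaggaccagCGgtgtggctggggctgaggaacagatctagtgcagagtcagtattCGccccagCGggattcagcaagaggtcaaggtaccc
Zfp503 (chr14:21989602-21989851, minus strand): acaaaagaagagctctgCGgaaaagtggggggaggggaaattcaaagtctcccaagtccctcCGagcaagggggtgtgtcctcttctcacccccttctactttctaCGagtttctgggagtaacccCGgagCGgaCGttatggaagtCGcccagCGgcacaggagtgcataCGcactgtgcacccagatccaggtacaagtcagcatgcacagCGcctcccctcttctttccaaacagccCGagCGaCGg
Mcpt8 (chr14:56085198-56085447, minus strand): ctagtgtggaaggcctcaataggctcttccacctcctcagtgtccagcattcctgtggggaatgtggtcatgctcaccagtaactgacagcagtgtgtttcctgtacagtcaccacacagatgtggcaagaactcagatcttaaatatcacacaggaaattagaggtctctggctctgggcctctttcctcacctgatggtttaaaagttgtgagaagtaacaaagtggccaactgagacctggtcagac
Tpt1 (chr14:75845006-75845255, plus strand): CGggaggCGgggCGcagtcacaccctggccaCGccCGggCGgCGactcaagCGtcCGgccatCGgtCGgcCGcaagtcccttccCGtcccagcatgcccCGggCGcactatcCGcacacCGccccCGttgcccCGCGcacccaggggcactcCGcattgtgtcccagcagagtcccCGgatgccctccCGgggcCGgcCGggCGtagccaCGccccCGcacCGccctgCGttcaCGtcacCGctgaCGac
The RefSeq start lay 903 bases from the deposited 5′ end of the gene for Txndc16, whose printed bases fall inside the deposited gene span. That distance was 163 for Tpt1, 70 for Npy4r, 19 for Mcpt8 and 0 for Zfp503. Tpt1 had 33 CG dinucleotides in these 250 bases, Zfp503 13, Txndc16 12, Npy4r 8 and Mcpt8 0. Of 27025 genes with a promoter in the table, counted once each, 91.7% had at least 1 CG, the median was 6, and 3.85% had as many as Tpt1. A RefSeq promoter on the same strand within 5000 bases of the deposited gene end was found for 326 of the 505 members, whose median was 16. The 27025 genes were not limited to expressed ones and were counted by their first listed promoter. For members the nearest promoter was taken, so the medians of 6 and 16 are not measured alike. Among the members called against parental below, the 27 matched ones with higher counts in KO_1E7 had 5 to 40 CG, with a median of 19. The 3 matched ones with lower counts, Acox2, Zfp503 and Mcpt8, had 3, 13 and 0. The remaining matched members, which were not called, had a median of 15.

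Libraries held between 27898705 and 51878289 counts on genes. For Vipr2 itself parental had 6, 3 and 12 counts, KO_1E7 had 1, 2 and 1, and CRISPR_1G2 had 1, 13 and 12, too few to check the labels firmly. Of 10 duct epithelial markers 9 had a mean of at least 1 CPM (counts per 1e6 counts, with library sizes scaled by edgeR's TMM method), with summed levels between 893 and 2117 CPM. Markers of islet cells summed to at most 0.0726 CPM, of endothelium to at most 1.42, of erythroid cells to at most 1.95, of acinar cells to at most 13.4, of immune cells to at most 12.6 and of fibroblasts to at most 138. Of 8 acinar markers 4 had no count in any library, and of 7 islet markers 4. The duct sum was lowest in CRISPR_1G2 3 and was mostly Krt8 and Krt18, which had 248 and 333 CPM there. Those and Cdh1 were lowest in that library, whereas Krt7, Krt19, Epcam, Sox9, Cldn7, Cldn4 and Muc1 were lowest in a KO_1E7 library. The acinar sum was 7.45 to 13.4 CPM in KO_1E7 and 2.49 to 2.82 in parental. The part of either sum in the results below was not tested. The acinar sum was mostly the elastase gene Cela1, at 7.37 to 13.1 CPM in KO_1E7 and 2.08 to 2.68 in parental, while the acinar transcription factor gene Bhlha15 had 0.0568 to 0.170 and 0.138 to 0.556 CPM. In bulk RNA, fewer cells of a type and less RNA per cell cannot be told apart. In the deposited column names the third library of each group carries the tag NSG and the others a date-like tag, so results are also given without the third libraries. Parental 1 shares its date-like tag with KO_1E7 1, and parental 2 with CRISPR_1G2 1.

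The members took a larger share of the counts in KO_1E7 than in parental. As a share of gene counts they held 2.92%, 2.70% and 2.501% in the parental libraries. The KO_1E7 libraries had 3.39%, 3.53% and 3.47%, and the CRISPR_1G2 libraries 3.05%, 3.06% and 3.37%. The groups do not overlap, with all CRISPR_1G2 libraries between the parental and the KO_1E7 ones. Of the members, 413 had 10 or more counts in all 9 libraries, 73 in 4 to 8 and 19 in exactly 3, and 4 met the rule through KO_1E7 alone. Just inside the rule, Slitrk5, which encodes a neuronal transmembrane protein, had counts of 7, 8 and 4 in parental, of 38, 43 and 39 in KO_1E7 and of 1, 0 and 1 in CRISPR_1G2. Just outside it, Gpr18 had 5, 7 and 19, then 9, 8 and 19, then 9, 1 and 2. Edge members of this kind carry few counts, and 9 of the 505 did not pass the expression filter of the test.

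The level of the chromosome in a library was taken as the median, over the 496 tested members, of the log2 difference in CPM from the other parental libraries, relative to the median of the tested genes of all other chromosomes. It was 0.02, -0.04 and -0.00 in parental, 0.30, 0.30 and 0.30 in KO_1E7, and 0.12, 0.09 and 0.10 in CRISPR_1G2. Every KO_1E7 library lay above every CRISPR_1G2 library, and these above every parental one. In the fitted contrast of KO_1E7 with parental the members had a median log2 fold change of 0.33, a ratio of 1.26, with 75.8% of members above 0. Among the genes of other chromosomes this share is 50% by construction, since fold changes were centred on their median. In CRISPR_1G2 against parental the median of the members was 0.12, with 64.7% above 0. KO_1E7 against CRISPR_1G2 gave 0.20 and 66.5%. Between libraries that share a tag the medians were 0.30 (KO_1E7 1 against parental 1) and 0.35 (KO_1E7 3 against parental 3), then 0.17 (CRISPR_1G2 1 against parental 2) and 0.06 (CRISPR_1G2 3 against parental 3), and 0.21 for the third libraries of the clones. Among 20 chromosomes, 14 ranked second highest in KO_1E7 against parental, after chromosome 8, and behind only 16 and X in CRISPR_1G2 against parental. In KO_1E7 against CRISPR_1G2 it came after chromosomes 8, 13 and 3.

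**Figure D1:**
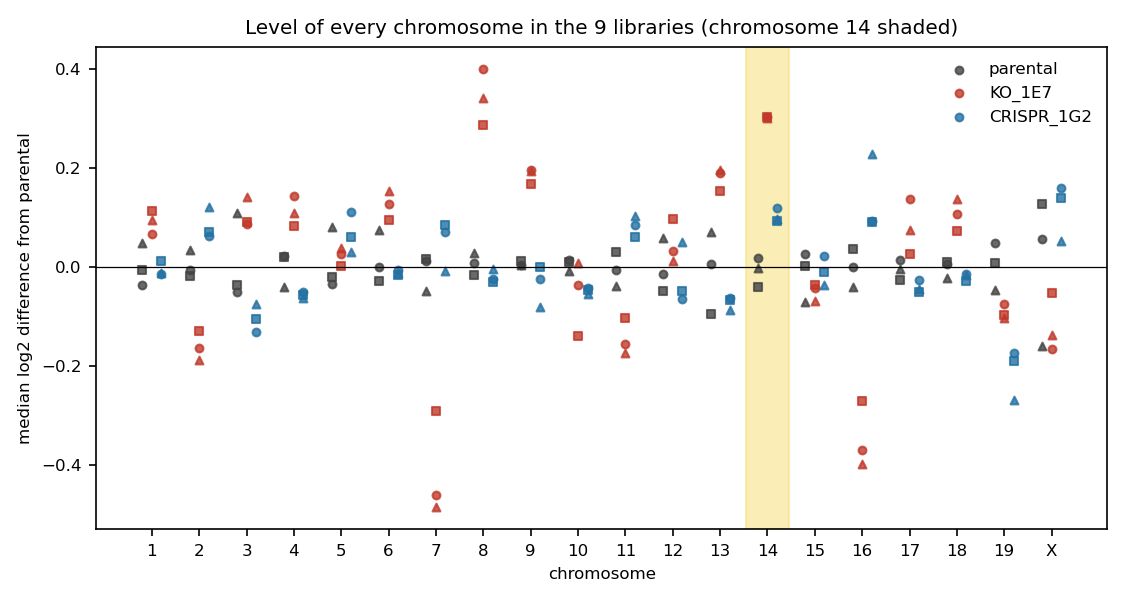
Level of each chromosome (horizontal axis) in each of the 9 libraries, as the median log2 difference from parental (vertical axis) over its tested genes; circles, squares and triangles are libraries 1, 2 and 3. On chromosome 14 the 3 KO_1E7 libraries lie at 0.30 with this reference, while on chromosomes 7, 8 and 16 KO_1E7 2 lies nearer to 0 than KO_1E7 1 and 3.

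The 3 KO_1E7 libraries were closer to each other on chromosome 14 than on the other chromosomes that were far from parental. On chromosome 7 they stood at -0.46, -0.29 and -0.49, on chromosome 8 at 0.40, 0.29 and 0.34, and on chromosome 16 at -0.37, -0.27 and -0.40, with the second library nearest to 0 each time. No test was made of this difference in spread. The agreement on chromosome 14 was less close in other settings. With the mean of all 9 libraries as reference, the KO_1E7 libraries stood at 0.16, 0.17 and 0.18. Over the members from 75 Mb on, against parental, they stood at 0.28, 0.38 and 0.34.

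Along the chromosome, the higher level in KO_1E7 was not limited to a segment. In all 13 bins of 10 Mb, every KO_1E7 library had a median above 0, and in 11 of them every one was above every parental library. In the 8 bins with 20 or more members the KO_1E7 medians ran from 0.17 to 0.44. With the members cut into 20 blocks in order, every KO_1E7 library was above every parental one in 18, the exceptions being the fifth and the seventh. The fifth runs from 31014287 to 32159865 by start position and holds Pbrm1, Nt5dc2, Bap1 and Galnt15 among others, with medians of -0.03, 0.05 and 0.08 in KO_1E7. In the seventh, which runs from 40993740 to 46775582, KO_1E7 had 0.14, 0.24 and 0.04 and parental up to 0.15. Between and before them, KO_1E7 had 0.35, 0.38 and 0.33 in the fourth and 0.28, 0.55 and 0.26 in the sixth.

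CRISPR_1G2 was above parental in fewer parts of the chromosome. Medians of single libraries in the 20 blocks ran from -0.03 to 0.55 in KO_1E7 and from -0.18 to 0.38 in CRISPR_1G2. All 3 CRISPR_1G2 libraries were above every parental library in 4 of 13 bins. Its libraries stood at 0.48, 0.47 and 0.51 between 90 and 100 Mb, where only 7 members lie, and at 0.29, 0.26 and 0.54 between 100 and 110 Mb, with 19 members. The KO_1E7 libraries were lower there, at 0.10, 0.22 and 0.20 and at 0.12, 0.23 and 0.19, so that the order of the clones was the reverse of that over the whole chromosome. Between 110 and 120 Mb, with 13 members, KO_1E7 had 0.63, 0.46 and 0.68 and CRISPR_1G2 0.41, 0.18 and -0.02. Over the 96 members from 75 Mb on, a boundary chosen after the values were seen, CRISPR_1G2 had 0.27, 0.25 and 0.20 and KO_1E7 0.28, 0.38 and 0.34. Before it, with 400 members, CRISPR_1G2 had 0.10, 0.07 and 0.06 and KO_1E7 0.31, 0.29 and 0.30.

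**Figure D2:**
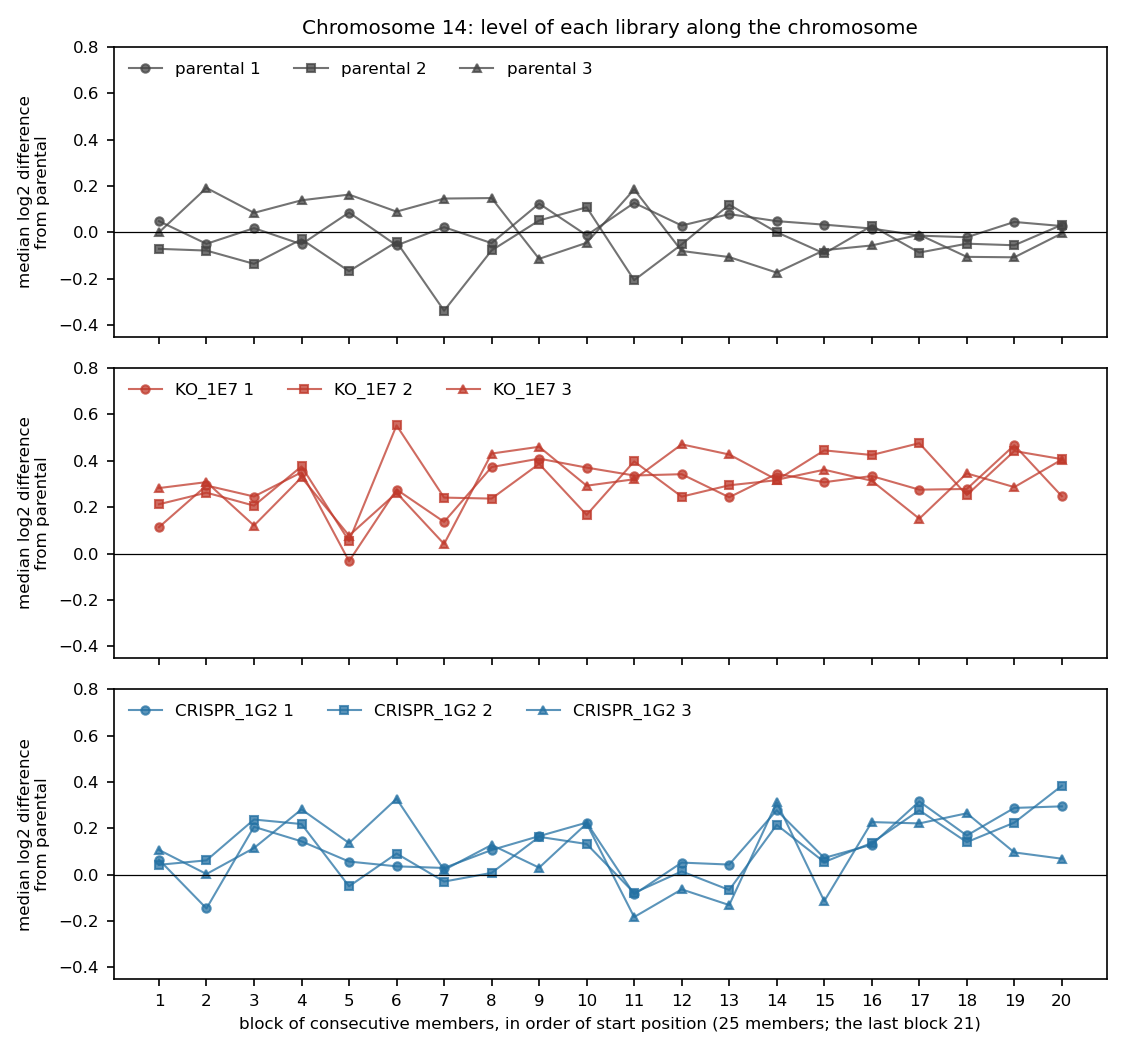
Median log2 difference from parental (vertical axis) in 20 blocks of consecutive members in order of start position (horizontal axis), 1 panel per group and 1 line per library. KO_1E7 lies above 0 in all 3 libraries in 19 blocks, and CRISPR_1G2 in 13.

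The level did not rest on weakly expressed members. Among the 311 with a mean of at least 10 CPM, KO_1E7 stood at 0.31, 0.30 and 0.30, and 82.3% had a fold change against parental above 0, against 52.2% of 8770 genes of other chromosomes at that level. The 86 tested members below 1 CPM had 59.3% above 0 and a wider range between the 25th and 75th percentiles of the fold changes, from -0.45 to 0.85. By kind of gene, the 417 protein-coding members had a median of 0.33 in KO_1E7 against parental and the 52 long non-coding or unclassified ones 0.31. In CRISPR_1G2 against parental they stood at 0.14 and -0.17. For the non-coding kind parental 3 stood apart: parental had -0.13, -0.23 and 0.49, KO_1E7 0.28, 0.46 and 0.30, and CRISPR_1G2 -0.16, -0.02 and -0.18, so both clones overlapped parental.

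In single members, KO_1E7 against parental gave 32 called higher and 7 lower (edgeR quasi-likelihood test, Benjamini-Hochberg adjusted p below 0.05), where 2.54% and 2.87% of all 15766 genes tested were called. The libraries of the 2 groups did not overlap for 198 members with KO_1E7 higher and 34 with it lower, beside 17.2% and 17.3% of all genes. These shares describe the contrast by which the chromosome was chosen. The counts moved with single libraries: 0 members were called in either direction without KO_1E7 1 or without KO_1E7 3, where 112 and 100 were higher, and 19 lower in both, at an unadjusted p below 0.05. Higher and lower calls numbered 13 and 12 without KO_1E7 2, 3 and 1 without parental 1, 5 and 7 without parental 2, 6 and 1 without parental 3, 8 and 4 without CRISPR_1G2 1, 9 and 4 without CRISPR_1G2 2, and 90 and 13 without CRISPR_1G2 3. Without the third libraries of all groups there were 72 higher and 10 lower. With all libraries, 137 members were higher and 28 lower at an unadjusted p below 0.05 by edgeR, beside 1660 and 2075 of all genes. Numbers of all genes in the fits with libraries left out are not given here. The medians of the members stayed between 0.31 and 0.34 as single libraries were left out. Of 18 other settings, the calls of Txndc16 and Mcpt8 in this contrast were lost in 2, and the rest of the 25 named calls in 4 to 11. Among that rest, Tpt1 and Uggt2 were lost in 11, and Chd8, Pbrm1 and Gpc6 in 10.

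**Figure D3:**
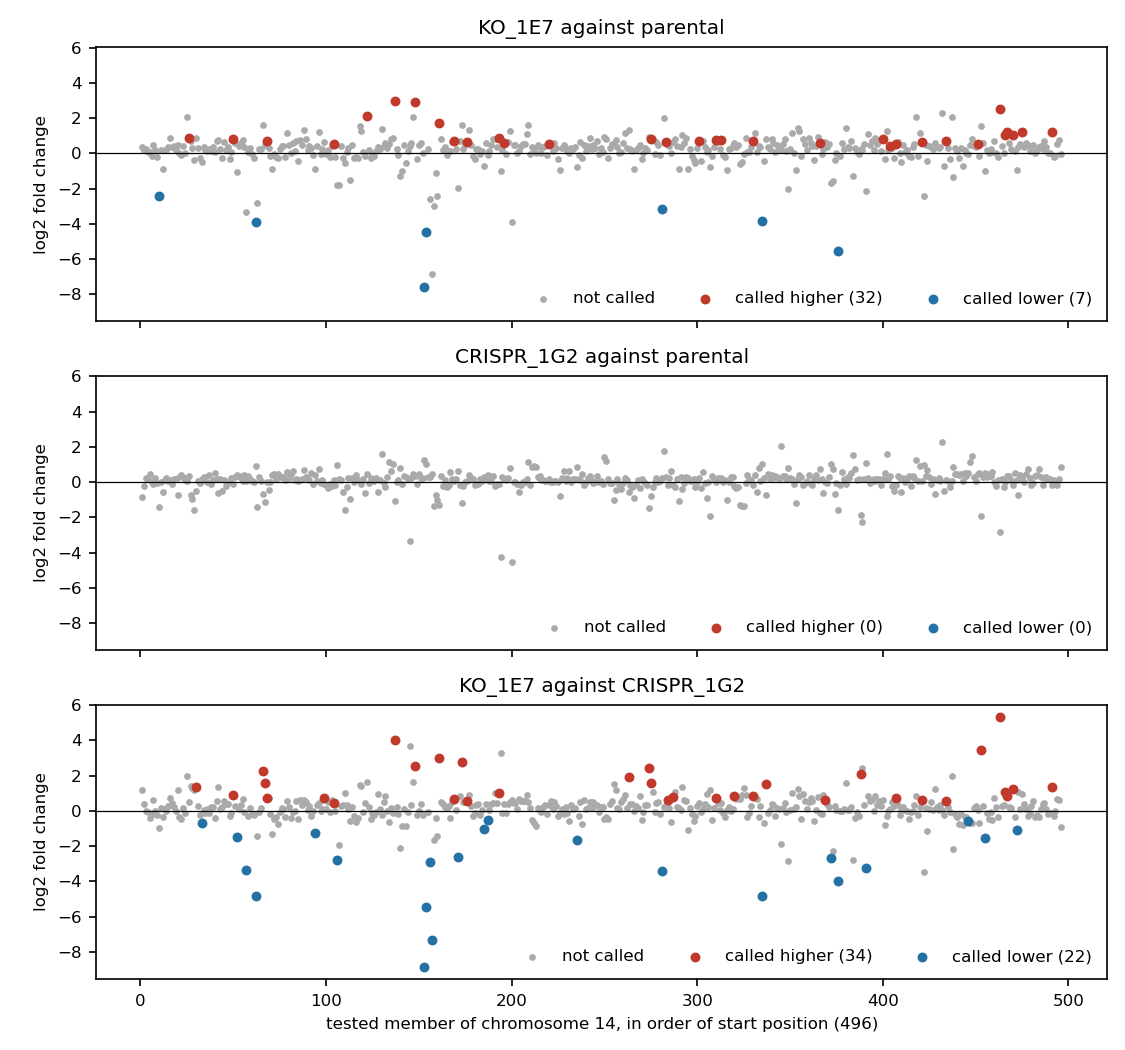
Log2 fold change (vertical axis) of the 496 tested members in order of start position (horizontal axis) in the 3 contrasts; red and blue points were called higher and lower by edgeR. The called members are spread over the chromosome, with 32 and 7 in KO_1E7 against parental, 0 in CRISPR_1G2 against parental, and 34 and 22 in KO_1E7 against CRISPR_1G2.

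Txndc16, which encodes a thioredoxin-domain protein of the endoplasmic reticulum, lay on opposite sides of parental in the clones. It lies on the minus strand at 45134448 to 45220328 (GRCm38, as for all positions here). It had 7.76, 4.86 and 6.64 CPM in parental, 20.7, 22.1 and 21.1 in KO_1E7, and 2.22, 2.30 and 3.33 in CRISPR_1G2. The 3 groups do not overlap. The log2 fold change in KO_1E7 was 1.73 ± 0.23 (SE) against parental (edgeR adjusted p = 0.0119) and 3.02 ± 0.25 against CRISPR_1G2 (0.000559). In CRISPR_1G2 against parental it was -1.29 ± 0.24 and missed the threshold (0.109). Gpr137c overlaps its start on the other strand, with at most 0.418 CPM in any library, and the counts do not separate strands. The next gene on that side, Ero1l, an oxidase of the endoplasmic reticulum, was at 336, 208 and 293 CPM in parental and 215, 527 and 231 in KO_1E7, which overlap.

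Rabggta, a subunit of the enzyme that attaches lipid anchors to Rab proteins, showed the same order of groups. It had 79.1, 62.1 and 82.8 CPM in parental, 112, 140 and 140 in KO_1E7, and 51.0, 42.7 and 34.3 in CRISPR_1G2. It rose in KO_1E7 by 0.81 ± 0.18 against parental (edgeR adjusted p = 0.0421) and by 1.61 ± 0.19 against CRISPR_1G2 (0.00281).

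The larger rises in KO_1E7 included genes at low levels. Npy4r, which encodes a receptor for pancreatic polypeptide, had 1.89, 3.89 and 0.834 CPM in parental, 27.1, 7.41 and 17.6 in KO_1E7, and 0.872, 1.80 and 0.519 in CRISPR_1G2. Its rise was 2.97 ± 0.69 against parental (edgeR adjusted p = 0.0451) and 4.02 ± 0.74 against CRISPR_1G2 (0.0121), and the second KO_1E7 library was the lowest of the 3. The uncharacterised gene 2610528A11Rik went from 0.246, 0.359 and 0.361 to 1.95, 2.27 and 3.224 CPM (2.93 ± 0.51, adjusted p = 0.0194). Galnt15, a glycosyltransferase that starts mucin-type O-linked chains, went from 3.58, 4.58 and 2.92 to 18.2, 19.6 and 9.76 CPM (2.10 ± 0.47, 0.0398). Clybl, a mitochondrial lyase for citramalyl-CoA, went from 9.18, 9.39 and 7.64 to 18.4, 24.3 and 17.6 CPM (1.20 ± 0.23, 0.0267). The transcription factor gene Sox21 went from 22.9, 21.8 and 21.6 to 54.9, 36.5 and 47.1 CPM (1.06 ± 0.22, 0.0329). In all 5 the KO_1E7 libraries lay above every parental one.

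Smaller rises, though above the median of 0.29 that all members had before centring, were called in Tpt1 and Ctsb, which were at high levels. Tpt1, a translationally controlled growth-related protein with the highest mean CPM and the highest CPM per kb among members, had 1635, 1389 and 1632 CPM in parental, 2227, 2310 and 2262 in KO_1E7, and 1397, 1363 and 1362 in CRISPR_1G2. Its rise in KO_1E7 was 0.55 ± 0.12 against parental (edgeR adjusted p = 0.0391) and 0.72 ± 0.12 against CRISPR_1G2 (0.00895). The call against parental was lost in 11 of 18 settings and that against CRISPR_1G2 in 1. Ctsb, the lysosomal protease cathepsin B, had 539, 414 and 552 CPM in parental, 852, 796 and 824 in KO_1E7, and 407, 445 and 514 in CRISPR_1G2, a rise of 0.72 ± 0.15 against parental (0.0348). Tpt1 has processed copies elsewhere in the genome that may share reads with it.

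Members that fell in KO_1E7 went against the rest of the chromosome. Piwil2, which encodes a PIWI protein of germ cells that binds piRNAs, had 4.95, 4.33 and 3.95 CPM in parental and 0.0565, 0.0947 and 0.119 in KO_1E7. In CRISPR_1G2 it had 0.327, 0.315 and 3.69, so that the third library stood with parental and the others did not. The fall was -5.56 ± 1.05 against parental (edgeR adjusted p = 0.0259). In CRISPR_1G2 against parental it was -1.60 ± 0.82 (0.716), and -3.77 without CRISPR_1G2 3, where it was called (0.00467). Its neighbours Slc39a14, a zinc transporter, and Polr3d, a subunit of RNA polymerase III, had fold changes in KO_1E7 of -0.01 and -0.14 and were not called.

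Zfp503, a transcriptional repressor, had 10.5, 7.67 and 16.9 CPM in parental, 0.198, 1.72 and 0.298 in KO_1E7, and 12.8, 10.9 and 41.4 in CRISPR_1G2. It fell by 3.91 ± 0.86 against parental (edgeR adjusted p = 0.0382) and by 4.80 ± 0.89 against CRISPR_1G2 (0.0127). Mcpt8, a mast cell and basophil protease, had 2.10, 2.21 and 1.72 CPM in parental, 0.170, 0.322 and 0.149 in KO_1E7, and 2.83, 2.71 and 1.53 in CRISPR_1G2, and fell by 3.18 ± 0.40 against parental (0.00948). Xkr6, of a family that includes scramblases of membrane lipids, fell from 1.97, 1.21 and 2.502 to 0.113, 0.227 and 0.0298 CPM (-3.82 ± 0.74, 0.0271). Acox2, a peroxisomal oxidase of branched-chain fatty acids and bile acid precursors, fell from 23.2, 8.12 and 19.6 to 2.20, 5.38 and 1.85 CPM (-2.42 ± 0.51, 0.0340). All of these KO_1E7 libraries were below every parental one.

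Of 6 members that lie between 43.3 and 44.6 Mb, 2 were called lower in KO_1E7 than in parental, 1700049E17Rik2 and Gm8127. 1700049E17Rik2 had 2.43, 0.994 and 4.64 CPM in parental, 0, 0.265 and 0.0597 in KO_1E7, and 4.21, 4.89 and 7.24 in CRISPR_1G2, a fall of 4.45 ± 0.90 against parental (edgeR adjusted p = 0.0306). Its neighbour Gm8127 (0.0255) had 73 counts in the parental libraries, 150 in CRISPR_1G2 and 0 in KO_1E7, which is at least 27.2-fold lower than parental and at least 66.1-fold lower than CRISPR_1G2 with 3 counts over the group as the floor. Gm8247, with 43 and 51 counts in parental and CRISPR_1G2 and 0 in KO_1E7, was at least 16.0-fold and 22.5-fold lower, and missed the threshold against parental (0.0501). Gm5624, with counts of 30, 40 and 94 in parental, 12, 12 and 6 in KO_1E7 and 23, 35 and 120 in CRISPR_1G2, was called against CRISPR_1G2 only (0.0317). Gm8113, with 5 to 13 counts in each library, was called in no contrast, and Gm16439 was not tested. Gm16439 was named after its values were seen. Genes of this region have near-identical copies, so the division of reads among them is uncertain.

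CRISPR_1G2 against parental gave 0 members called in either direction by edgeR, where 0 genes of all those tested were called higher and 0.254% lower. At an unadjusted p below 0.05, 36 of the 496 tested members were higher and 19 lower, beside 522 and 696 of all 15766 genes. The CRISPR_1G2 libraries lay above all parental libraries for 59 members and below for 19, beside 6.64% and 6.45% of all genes. DESeq2 called 3 members higher and 2 lower, where it called 0.179% and 0.662% of all genes. Tnfrsf10b, Prkcd, Txndc16 and Rabggta, named after their values were seen, are 4 of these 5. Tnfrsf10b, the mouse death receptor for the ligand TRAIL, had 59.4, 65.8 and 57.8 CPM in parental, 94.6, 82.2 and 102 in KO_1E7 and 99.4, 106 and 104 in CRISPR_1G2. Both clones lay above parental, with 0.61 ± 0.12 in KO_1E7 (edgeR adjusted p = 0.0292) and 0.76 ± 0.12 in CRISPR_1G2 (0.0594). These comparisons share the parental libraries.

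KO_1E7 against CRISPR_1G2 gave 34 members called higher and 22 lower, where 5.71% and 7.03% of all genes were called by edgeR. Without KO_1E7 3 there were 8 and 3, without KO_1E7 1 13 and 5, without CRISPR_1G2 1 16 and 15, without CRISPR_1G2 2 19 and 13, without CRISPR_1G2 3 43 and 14, without parental 1 27 and 12, and without parental 3 51 and 24. Without the third libraries of all groups there were 72 and 27. Numbers of all genes called in these fits are not given, so these counts do not set the members apart from other genes. Calls of Txndc16, Rabggta, Mcpt8, Xkr6, Msra and Clybl in this contrast passed under each of the 18 alternative settings. Msra, which repairs oxidised methionine, had 11.8, 9.28 and 7.17 CPM in parental, 19.0, 13.9 and 16.9 in KO_1E7, and 5.74, 6.30 and 4.98 in CRISPR_1G2, a difference between the clones of 1.55 ± 0.23 (edgeR adjusted p = 0.00583).

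Among those lower in KO_1E7 than in CRISPR_1G2 were a secreted signal, a lectin and a protease. Bmp4, a ligand of the bone morphogenetic protein pathway, had 70.7, 64.6 and 140 CPM in parental, 19.4, 37.1 and 13.4 in KO_1E7, and 87.9, 75.6 and 272 in CRISPR_1G2, a difference of -2.64 ± 0.60 (edgeR adjusted p = 0.0248). Against parental it was -1.98 ± 0.59 and missed the threshold (0.0838). The third libraries of parental and CRISPR_1G2 were the highest for this gene. Lgals3, the lectin galectin-3, had 412, 331 and 468 CPM in parental, 276, 287 and 186 in KO_1E7, and 439, 490 and 579 in CRISPR_1G2 (-1.01 ± 0.21, 0.0176). Plau, the urokinase protease, had 7.57, 5.99 and 18.1, then 4.78, 5.15 and 5.22, then 11.3, 11.6 and 19.5 CPM in the same order (-1.48 ± 0.42, 0.0494), a call that was lost in 9 of 18 settings, among them other size factors and a filter on the mean CPM. In each of these the KO_1E7 libraries were below all libraries of both other groups.

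For some members the clones lay on either side of parental. Rcbtb2, of a family with chromatin-condensation-regulator repeats, had 8.74, 10.1 and 7.53 CPM in parental, 0.367, 4.98 and 0.388 in KO_1E7, and 18.7, 18.8 and 19.1 in CRISPR_1G2. Its difference between the clones was -3.27 ± 0.87 (edgeR adjusted p = 0.0433), and neither clone was called against parental. That call was lost in 11 of 17 settings, among them no expression filter, only the groups compared, and the third libraries left out. Nt5dc2, a nucleotidase-domain protein, had 5.87, 4.61 and 3.73, then 0.537, 3.01 and 0.418, then 9.30, 10.2 and 8.21 CPM in that order (-2.77 ± 0.67, 0.0310). KO_1E7 2 was the highest of its group for both genes, and the call of Nt5dc2 was lost in 8 of 18 settings. For Uchl3, a deubiquitinase, only CRISPR_1G2 stood apart from parental, at 92.3, 88.6 and 111 CPM. Parental at 65.6, 71.6 and 63.3 CPM and KO_1E7 at 71.7, 64.9 and 62.4 overlapped. Here too KO_1E7 was lower than CRISPR_1G2 (-0.55 ± 0.13, edgeR adjusted p = 0.0267), a call that was lost in 9 of 18 settings.

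**Figure D4:**
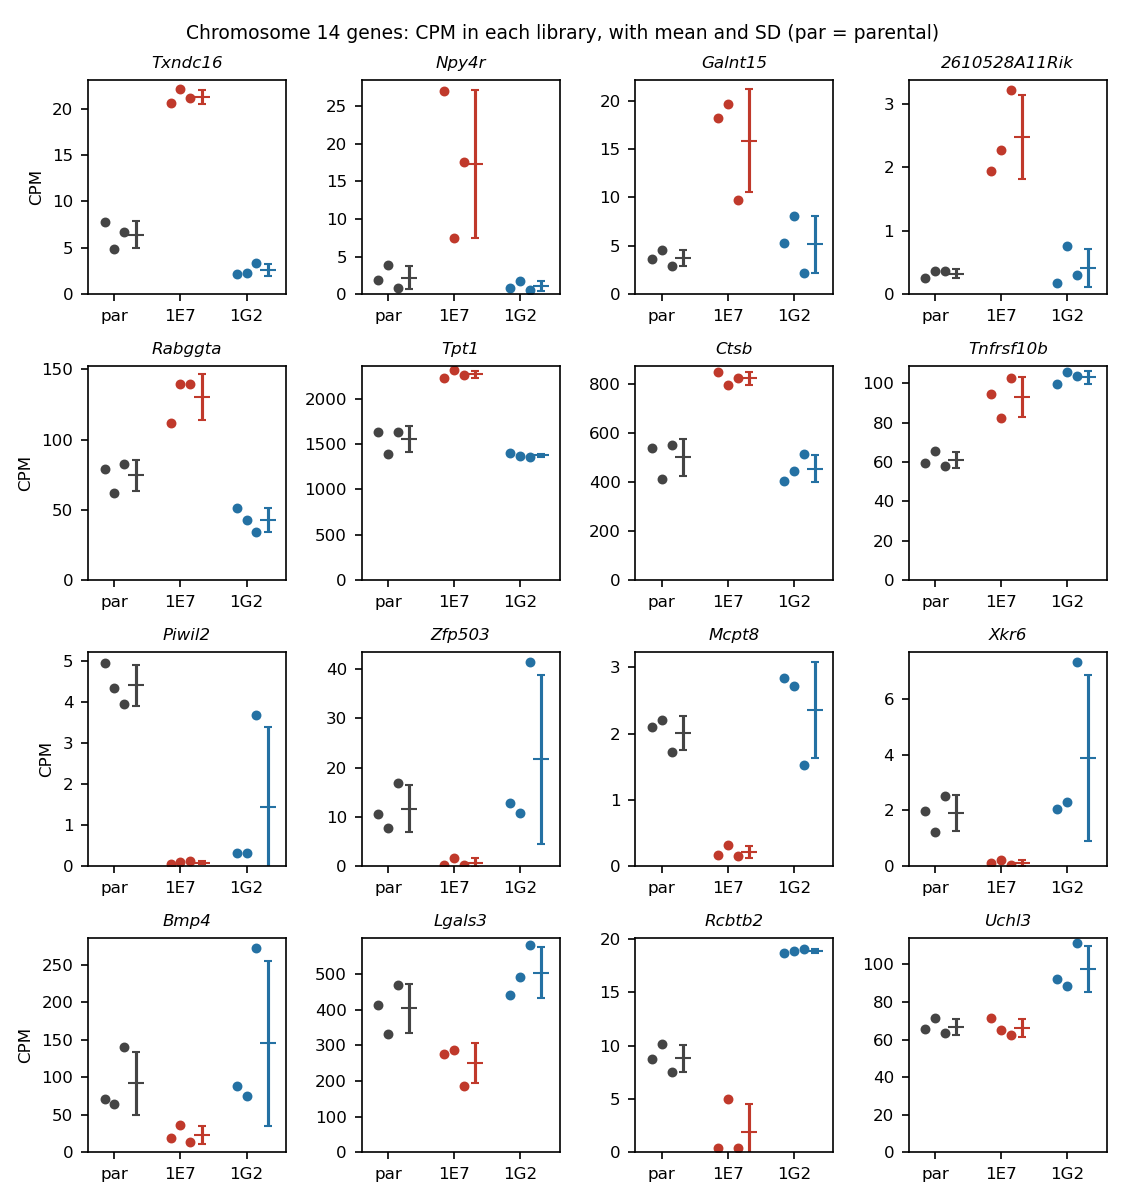
CPM (vertical axes, from 0) in each library for 16 members, with points for libraries 1, 2 and 3 from left to right in each group and bars for the mean and SD of 3 libraries (bars are cut at 0). Txndc16 and Rabggta show 3 separate groups, and the third CRISPR_1G2 library stands apart from the other two for Piwil2, Zfp503, Xkr6 and Bmp4.

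By role, lists of chromosome 14 genes written with earlier results known were described by counts and medians of the centred log2 fold change of KO_1E7 against parental, beside 0.33 for all members and 0.01 for all genes tested. Of genes for protein folding, secretion and degradation, 27 of 27 were above 0 (median 0.41). Of these 3 rose, among them Rabggta and Uggt2, a glucosyltransferase that senses misfolded glycoproteins, 0 fell and 24 did not pass. Uggt2 went from 1.56, 1.41 and 1.11 to 3.96, 2.52 and 3.01 CPM (1.215 ± 0.28, edgeR adjusted p = 0.0423). Of genes for DNA replication, repair, telomeres and mitosis, 15 of 16 were above 0 (median 0.41), and Diaph3, a formin that nucleates actin, and Ska3, of the kinetochore, rose. Diaph3 had 108, 105 and 109 CPM in parental and 174, 152 and 190 in KO_1E7 (0.68 ± 0.13, 0.0266).

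Of 18 tumour suppressors and chromatin regulators, 14 were above 0 (median 0.34), and Chd8, Pbrm1 and Zmiz1 rose while 0 fell. Chd8, a chromatin remodeller, had 152, 151 and 144 CPM in parental, 212, 219 and 217 in KO_1E7 and 167, 169 and 176 in CRISPR_1G2 (0.53 ± 0.10 in KO_1E7, edgeR adjusted p = 0.0238). Pbrm1, a subunit of the PBAF remodelling complex, rose by 0.56 ± 0.12 (0.0352) and Zmiz1, a coactivator, by 0.72 ± 0.16 (0.0381). Rb1, the retinoblastoma gene, had 17.5, 13.3 and 26.8 CPM in parental and 36.4, 45.5 and 39.5 in KO_1E7, which do not overlap, with a fold change of 1.07 that missed the threshold (0.172). Bap1, a deubiquitinase of histone H2A, had 108, 106 and 91.8 in parental and 125, 126 and 126 in KO_1E7 (0.30, 0.142). Rb1 and Bap1 were chosen after their values were seen.

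Of 9 cell death regulators, 8 were above 0 (median 0.58), with Tnfrsf10b and Tpt1 called higher. The 19 genes for RNA synthesis, processing and translation had a lower median, 0.13, with 16 above 0 and Tpt1 alone called. Metabolic and mitochondrial genes had 20 of 26 above 0 (0.30), with Acox2 lower and 0 higher. Extracellular proteases and matrix genes had 7 of 11 above 0 (0.28), with Ctsb and the heparan sulphate proteoglycan gene Gpc6 higher, the latter from 5.71, 4.28 and 6.20 to 10.1, 11.7 and 11.5 CPM (1.04 ± 0.24, edgeR adjusted p = 0.0398).

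Transcription factors had 8 of 14 above 0 (0.21), with Sox21 higher and Zfp503 lower. Kinases, phosphatases and second messengers had 16 of 21 above 0 (0.20) and secreted signals, receptors and feedback inhibitors 7 of 13 (0.08), with 0 called in either. Transporters and ion channels had 5 of 10 above 0 (0.01), also with 0 called. Cytoskeleton, junction and annexin genes had 15 of 23 above 0 (0.38), again with 0 called, and were the list with the highest median in CRISPR_1G2 against parental (0.32, 20 of 23 above 0) among those with more than 2 tested members. At an unadjusted p below 0.05 these 4 lists had 6, 4, 2 and 7 members, in the same order. Of all 496 tested members 165 had such a p, and of all 15766 genes 3735. DESeq2 called 2, 3, 1 and 5 members of these lists. Over all tested members it called 81 higher and 18 lower, and over all 15766 genes 925 and 1053. Of 33 genes of the granzyme, mast cell protease and ribonuclease clusters, only Mcpt8 and Ctsg were tested.

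**Figure D5:**
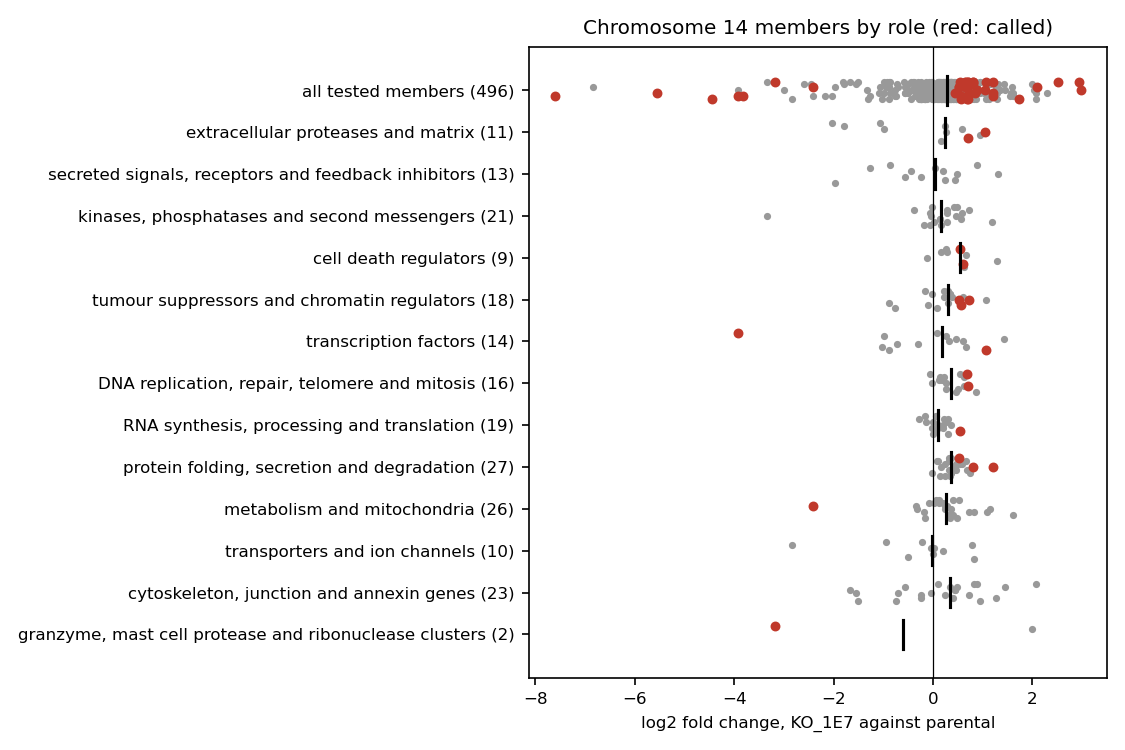
Log2 fold change of KO_1E7 against parental, not centred (horizontal axis), of tested members by role (rows, with the number of members); red points were called and black bars mark medians. All but the granzyme, mast cell protease and ribonuclease row, which has 2 members, and the row of transporters and ion channels have a median above 0.

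One member set a single library apart. Rpph1, the RNA subunit of RNase P, had 890 CPM in parental 3 and between 8.88 and 26.8 in the other 8 libraries. It is not a polyadenylated messenger, and it was named after its values were seen. Its fold changes, -3.92 in KO_1E7 and -4.52 in CRISPR_1G2 against parental, rest on that library and were not called (edgeR adjusted p = 0.158 and 0.532).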

How the data were processed

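Per the labels' protocols, RNA was extracted from frozen pellets, selected with oligo-dT beads and made into libraries with the NEBNext Ultra II kit, which does not mark strand. Per the submitters' processing notes, the tools were bcl2fastq 2.17 for demultiplexing, STAR 2.5.2b for alignment (build GRCm38) and featureCounts (Subread 1.5.2) for counting. For the annotation release and the strand setting, a statement is not given in the sources used here. Values that the authors deposited are raw counts per gene, and per-sample and series tables differed in 0 cells. Spike-in controls, 0.344% to 0.820% of counts, were left out.

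Counts were tested in R 4.3.3 with the robust quasi-likelihood test of edgeR 4.0.16 (TMM scaling, its expression filter by group, all 9 libraries in 1 fit), adjusted by Benjamini-Hochberg over 15766 genes and called at 0.05. DESeq2 1.42.0 was an alternative. Scripts were tested on simulated data. An exact permutation test of 3 against 3 libraries cannot go below 0.1, so none was used. Per-library levels used log2 CPM with a prior count of 2. Fold changes of single genes are not centred; medians over members or lists are. Coordinates are those of the deposited tables. Of the members, 191 overlap a gene on the opposite strand, whose reads cannot be told apart.

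Same-numbered parental and CRISPR_1G2 libraries deviated together from their group means (correlations across genes 0.243, 0.469 and 0.647), so a replicate block was run as an alternative. Deviations within a group sum to 0, so a shared deviation of the third libraries by itself tends to make the other correlations positive. Parental 1 and CRISPR_1G2 2, of unlike number, had 0.136. These values therefore cannot show a pairing by number, and the main fit had no block. Parental 2 and CRISPR_1G2 1, whose columns share a date-like tag, had 0.54, above the values of both with their own number, so a block by tag was added after seeing the data. Neither block changed a call between these groups.

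The members and gene lists were chosen with earlier results of these data known. Named genes are those called in a contrast with the 8 largest and 8 smallest fold changes, a mean of at least 1 CPM and groups that do not overlap; the 6 members with the highest mean CPM; called members of the lists and up to 2 highly expressed ones of each; and neighbours. Exceptions are stated where they occur, and 1 member is not reported here by name. Alternatives were DESeq2, other size factors, other filters, only the groups compared, a replicate block, a block by column tag, and libraries left out.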

Additional observations from a re-analysis of the deposited data

How the results depend on the processing

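The direction of the median of the chromosome 14 members was the same in each contrast under every alternative run. In KO_1E7 against parental it lay between 0.31 and 0.34 as libraries were left out in turn and was 0.29 without centring. In CRISPR_1G2 against parental it lay between 0.09 and 0.12. In KO_1E7 against CRISPR_1G2 it lay between 0.17 and 0.23, and was 0.16 without parental 3 and CRISPR_1G2 3, 0.17 without the third libraries and 0.17 without centring.

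Counts of calls depended on the setting far more. In KO_1E7 against parental, higher calls ran from 0 to 90 and lower calls from 0 to 13 as libraries were left out in turn, and the cause was not tested. DESeq2 gave 81 and 18 members, where it called 925 and 1053 of the 15766 genes tested by edgeR. No expression filter gave 17 members higher, the third libraries left out 72 higher, and parental 3 with CRISPR_1G2 3 left out 131 and 14. In CRISPR_1G2 against parental, each direction had 0 or 1 as libraries were left out: Piwil2 was lower without CRISPR_1G2 3 and Wdfy4, a gene of antigen cross-presentation, higher without parental 1. Piwil2 was also the 1 lower call without parental 3 and CRISPR_1G2 3, and without the third libraries, and DESeq2 gave 3 higher and 2 lower. In KO_1E7 against CRISPR_1G2, calls ran from 8 to 51 higher and 3 to 24 lower as libraries were left out in turn. DESeq2 gave 68 members higher, where it called 1300 of the 15766 genes higher. There were 72 members higher without the third libraries, and 111 and 35 without parental 3 and CRISPR_1G2 3. Numbers of all genes called in settings other than DESeq2 are not given, here or below. Those member counts therefore do not set the members apart from other genes.

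Deviations of KO_1E7 from its mean were weakly correlated with those of same-numbered libraries of the other groups (-0.05 to 0.153), including parental 1 and KO_1E7 1, which share a column tag (-0.003). With the replicate block, 51 members were higher against parental and 59 against CRISPR_1G2, and the block changed no call in CRISPR_1G2 against parental. With a block by the tag of the column names, chosen after seeing the data, 57 were higher and 28 lower in KO_1E7 against parental, 39 and 33 against CRISPR_1G2, where the median was 0.23, and 0 and 0 in CRISPR_1G2 against parental (51 and 19 at an unadjusted p below 0.05). Tags borne by 1 library take KO_1E7 2 and CRISPR_1G2 2 out of that fit's contrasts.

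Of 25 named calls in KO_1E7 against parental, 0 passed without KO_1E7 1 or KO_1E7 3, 2 without parental 1 or parental 3, and 25 by DESeq2, with the replicate block and without CRISPR_1G2 3, and 18 with the block by tag. Of 37 against CRISPR_1G2, between 8 and 36 passed as libraries were left out and 24 with the block by tag. None of the named calls turned its direction in any setting. Depth limits members near 10 counts, such as Slitrk5, more than the rest.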
